A study of Mus musculus with 5 samples.

Results

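The 10 genes described here are the zinc finger genes Egr1, Egr2, Egr3 and Egr4, the orphan nuclear receptor genes Nr4a1 and Nr4a2, the immediate early response genes Ier2, Ier3 and Ier5, and Zfp36, which encodes tristetraprolin. They were chosen by name as genes that serum switches on quickly. Each was read through the array feature annotated with that symbol alone, and the brightest feature was to be used where a gene had several. All 10 had exactly 1 such feature, and they stand among 19938 named genes on the array. The cells were undifferentiated embryonic stem cells of mouse strain C57BL/6, in 2 wild-type cultures and 3 cultures labelled Mkl2-/-, with 1 Affymetrix whole-transcript array per culture. Mkl2 (current symbol Mrtfb) encodes a myocardin-related transcription factor, and the series asks how its loss affects TGF-beta signalling. The cells of both groups grew on gelatin and fibroblast feeders with 20 percent fetal bovine serum and leukaemia inhibitory factor. Before lysis they were trypsinized and held for 1 hour in medium so that feeders could attach, a step both genotypes went through. How the Mkl2 allele was disrupted, and from how many lines or clones the cultures came, are points not given in the sources used here. All p-values therefore measure only how much cultures differed, which may be technical.

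Serum, growth factors and mechanical or chemical stress raise these genes within minutes and without new protein synthesis. At many of them serum response factor (SRF) binds a short element called the CArG box, together with either a ternary complex factor of the ETS family (Elk1, Elk3 or Elk4), which is activated by the MAP kinase ERK, or a myocardin-related factor such as Mkl2, which is released by actin polymerization. The Egr proteins bind GC-rich DNA, the Nr4a receptors act without a known natural ligand as activators, and tristetraprolin binds AU-rich messenger RNAs and speeds their decay.

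Promoter sequences are shown first because the CArG box is the element through which SRF and its partners act. RefSeq start sites of build GRCm38.p6, each with 250 bases before and 50 bases after the start, were found for 7 of the 10 members: Egr2, Egr4, Nr4a1, Nr4a2, Ier3, Ier5 and Zfp36. Both strands were searched for the CArG box (10 letters, with 6 A or T letters between a CC and a GG), the CArG box with 1 mismatch, the ETS core CCGGAA, the Egr sites GCGTGGGCG and GCGGGGGCG, and the CRE core TGACGT. An exact CArG box was in a window of 2 of these 7 members, Zfp36 and Egr2, against 1.81% of 27025 mouse genes with such windows (1.63% of 32851 single windows). A gene with several start sites counts once in shares of genes, and Egr2 has more windows than the others. The 150 bases before the start of Zfp36 (chr7:28379229-28379378, minus strand) hold a CArG box, an ETS core and an Egr site in capitals, and the 150 bases before the start of Egr4 (chr6:85513590-85513739, minus strand) hold a CArG box with 1 mismatch in capitals.
Zfp36: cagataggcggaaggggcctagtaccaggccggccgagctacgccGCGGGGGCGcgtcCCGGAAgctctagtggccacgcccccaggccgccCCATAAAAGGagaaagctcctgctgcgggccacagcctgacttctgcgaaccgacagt
Egr4: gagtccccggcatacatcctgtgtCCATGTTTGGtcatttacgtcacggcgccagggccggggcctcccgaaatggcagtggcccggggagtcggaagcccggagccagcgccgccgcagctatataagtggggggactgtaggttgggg

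Egr2 has 5 start sites in the table, and exact CArG boxes lay 72 bases before the start at position 67537566 and 72 bases before the start at position 67537869 of chromosome 10 (chr10:67537484-67537513 and chr10:67537787-67537816, plus strand). Nr4a1 (chr15:101266735-101266764) and Ier3 (chr17:35821528-35821557 and chr17:35821632-35821661), all on the plus strand, had the box with 1 mismatch. The following 30-base stretches carry these boxes in capitals.
Egr2, upstream box: cggatcttctCCTTTTTTGGaaagtctcgg
Egr2, downstream box: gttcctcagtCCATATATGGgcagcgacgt
Nr4a1: ccccccgcgcCCTTGTATGGccaaagctcg
Ier3, distal box: tagagaataaCCAATCAAGGctccgcctac
Ier3, proximal box: cggcccggccCCTTCTTTGGctctataagt

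In Zfp36 the CArG box lay 58 bases before the start and in Nr4a1 the inexact box 101 bases before it. A box with 1 mismatch was in the windows of 4 members, Egr2, Egr4, Nr4a1 and Ier3, and in those of 22.5% of all genes (19.9% of all windows). The ETS core was found in Egr2, Nr4a1 and Zfp36 (16.7% of all genes, 14.9% of all windows), GCGGGGGCG in Nr4a1 and Zfp36 (3.31% and 2.91%), the CRE core in Egr2 and Egr4 (8.37% and 7.51%), and GCGTGGGCG in none of the 7 members (0.707% and 0.612%). The windows of Ier5 and Nr4a2 held none of these letters. These matches describe the printed windows and do not show binding.

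Stem cell markers were well expressed on all arrays, while 1 of 12 fell and 4 rose, and 3 of 22 fibroblast markers fell. All 12 embryonic stem cell markers examined lay above the background level on every array (log2 7.30, the 95th percentile of 1027 olfactory receptor genes), with array means of 11.47 to 11.57. By the limma test used below, Nanog fell (-1.14), Dppa4 (0.74), Fgf4 (0.67), Dppa5a (0.49) and Utf1 (0.39) rose (33.3% of the list, against 2.99% of all genes), and 7 of the 12 did not pass. Of 22 fibroblast markers 3 fell (13.6%, against 6.28% of all genes), 0 rose and 19 did not pass, with a median difference of -0.06. The falls were in Igfbp4 (-0.99), Pdgfrb (-0.28) and Mmp2 (-0.26). The groups did not overlap in 7 markers that were lower (16.7% of all genes) and 1 that was higher in Mkl2-/- (3377 of all 19938 genes). Of these markers, 4 (Lum, Postn, Fap and Dpt) were below background on all arrays. The mean of the list was 7.95 on both wild-type arrays and 7.78 to 7.85 on the Mkl2-/- arrays. The Mkl2 transcript itself, by the brightest of its 3 features, read 9.80 and 9.75 in wild type against 9.32, 9.32 and 9.09 in Mkl2-/-. The difference was -0.53 ± 0.09 (SE, limma adjusted p = 0.0480). It is no check of the disruption, since the sources used here do not place the feature relative to the disrupted part. Wild-type replicate 1 had 27.5% and 26.5% of its gene values equal to 2 decimals to those of Mkl2-/- replicates 1 and 2, against 19.4% to wild-type replicate 2, although the SD of the differences was 0.098 between the wild-type arrays and 0.216 to 0.255 between genotypes. Precision is limited by having only 5 arrays.

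Of the 10 genes, 5 fell in Mkl2-/- cells and none rose: Egr2, Egr1, Ier5, Nr4a1 and Zfp36, by 1.36-fold to 1.76-fold. The test was limma with Benjamini-Hochberg adjustment over all 19938 genes and a threshold of 0.05. Over all genes 6.28% fell and 2.99% rose by that test. At an unadjusted p under 0.05 there were 7 lower and 0 higher members, against 2556 lower and 2025 higher among all 19938 genes. The groups did not overlap, with every Mkl2-/- array lower, in 7 of the 10 genes (the 5 named and Egr3 and Ier2), against 16.7% of all genes. The median difference was -0.36 on the log2 scale over the 10 genes and 0.02 over all genes. Every difference is Mkl2-/- minus wild type. All 10 lay above the background level by their mean over the arrays. Among the 13564 genes above that level 8.78% fell and 4.15% rose, and 3077 had every Mkl2-/- array lower without overlap. RNA came from whole cultures, so fewer cells with a transcript and less transcript per cell cannot be told apart.

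**Figure D1:**
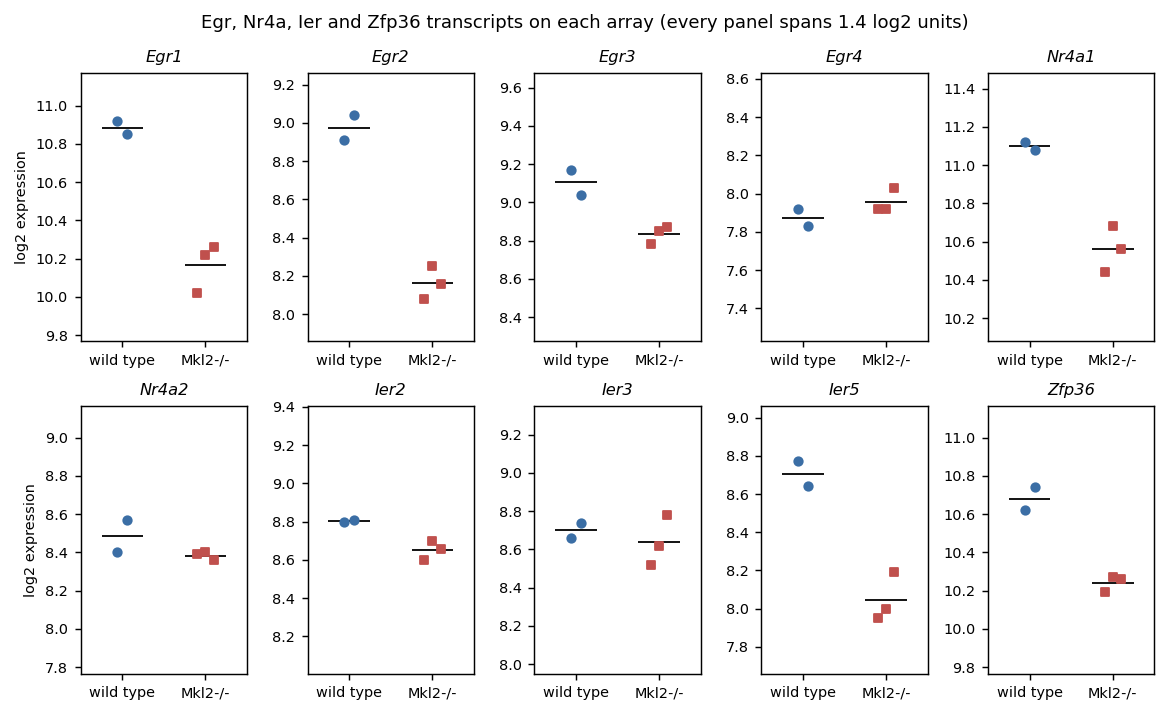
Log2 expression of each of the 10 genes (vertical axes, each spanning 1.4 log2 units at its own height) on the 2 wild-type arrays (circles) and the 3 Mkl2-/- arrays (squares), with the group means as lines. The arrays of the groups are apart in Egr1, Egr2, Egr3, Nr4a1, Ier2, Ier5 and Zfp36 and overlap in Egr4, Nr4a2 and Ier3.

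Within the Egr family the size of the difference ran from a fall of 1.76-fold in Egr2 to no change past the test in Egr4. Egr2, known as Krox20 and needed for hindbrain patterning and myelination, read 8.91 and 9.04 in wild type against 8.08, 8.25 and 8.16 in Mkl2-/-. All 3 Mkl2-/- arrays lay below both wild-type arrays. The difference was -0.81 ± 0.07 (SE, n = 2 and 3; limma adjusted p = 0.0141), and its 95% confidence interval ran from -1.01 to -0.61. Egr1, the best known serum-induced member of the family and a regulator of growth factor genes, read 10.92 and 10.85 in wild type against 10.02, 10.22 and 10.26 in Mkl2-/-. Again no array of one group reached the other. Egr1 fell 1.65-fold (-0.72 ± 0.09, adjusted p = 0.0258).

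Egr3 and Egr4 did not pass the test. Egr3, which is needed for muscle spindle development, read 9.17 and 9.04 in wild type against 8.78, 8.85 and 8.87 in Mkl2-/-. The arrays did not overlap, and the difference of -0.27 ± 0.05 had an adjusted p of 0.0668 with an interval of -0.42 to -0.12. Egr3 passed among genes above background only (adjusted p = 0.042), and its adjusted p ranged from 0.106 to 0.191 with single arrays left out. Egr4 read 7.92 and 7.83 in wild type against 7.92, 7.92 and 8.03 in Mkl2-/-. Its groups touched at 7.92, the difference was 0.08 ± 0.05 (adjusted p = 0.398), and the interval of -0.06 to 0.23 lay wholly above those of Egr1, Egr2 and Egr3. With single arrays left out, the adjusted p of Egr2 ranged from 0.0555 to 0.0849 and that of Egr1 from 0.0452 (without Mkl2-/- replicate 1, the fit in which it passed) to 0.132. Egr1 differed by -0.76 to -0.64 and Egr2 by -0.88 to -0.75 across those fits.

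The pair of Nr4a receptors differed in their calls. Nr4a1, also called Nur77, is induced by growth factors and stress in many cell types. It read 11.12 and 11.08 in wild type against 10.44, 10.68 and 10.56 in Mkl2-/-. The Mkl2-/- arrays were all lower, although they spread more (SD 0.12) than the wild-type arrays (SD 0.03). Nr4a1 fell 1.45-fold (-0.54 ± 0.08, adjusted p = 0.0379), with an adjusted p of 0.0633 to 0.166 when single arrays were left out. Nr4a2, known as Nurr1 and needed for midbrain dopaminergic neurons, read 8.40 and 8.57 in wild type against 8.39, 8.40 and 8.36 in Mkl2-/-. Wild-type replicate 1 equalled an Mkl2-/- array, and the difference was -0.10 ± 0.06 (adjusted p = 0.393, interval -0.26 to 0.06). The Nr4a2 difference was -0.02 without wild-type replicate 2 and -0.19 without wild-type replicate 1, so 1 wild-type array set most of its size. The third member of that receptor family, Nr4a3, lay below background on all arrays (6.94 and 7.09 in wild type, 6.82, 6.88 and 6.88 in Mkl2-/-) and is given no fold.

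Among the Ier genes only Ier5 passed. Ier5, which encodes a nuclear protein linked to the heat shock factor HSF1, read 8.77 and 8.64 in wild type against 7.95, 8.0 and 8.19 in Mkl2-/-. All Mkl2-/- arrays were lower, Mkl2-/- replicate 3 the least so. Ier5 fell 1.58-fold (-0.66 ± 0.09, adjusted p = 0.0346, and 0.059 to 0.135 with single arrays left out). Ier2, a small nuclear protein gene, read 8.80 and 8.81 in wild type against 8.60, 8.70 and 8.66 in Mkl2-/-. The groups did not overlap, but the difference of -0.15 ± 0.03 had an adjusted p of 0.0892 (interval -0.25 to -0.06). Ier3, a stress-induced gene involved in cell survival, read 8.66 and 8.74 in wild type against 8.52, 8.62 and 8.78 in Mkl2-/-. Its highest value was in Mkl2-/- replicate 3, and the difference was -0.06 ± 0.09 (adjusted p = 0.673, interval -0.31 to 0.19). Ier5l, a relative of Ier5, read 9.14 and 9.03 in wild type against 9.24, 9.29 and 9.33 in Mkl2-/- (0.20 ± 0.05, adjusted p = 0.0959), a difference of opposite sign that did not pass. It was named after its value was seen.

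All 4 measured genes of the Zfp36 family fell, against 6.28% of all genes. Zfp36 read 10.62 and 10.74 in wild type against 10.19, 10.27 and 10.26 in Mkl2-/-. The groups were apart, with the 3 Mkl2-/- arrays within 0.08 of each other in log2 units. Zfp36 fell 1.36-fold (-0.44 ± 0.05, adjusted p = 0.0221, and 0.0536 to 0.0971 with single arrays left out). Its relatives Zfp36l1 and Zfp36l2, which also bind AU-rich messages, were each lower on all 3 Mkl2-/- arrays. Zfp36l1 read 10.94 and 11.0 in wild type against 10.55, 10.52 and 10.40 in Mkl2-/- (-0.48 ± 0.06, adjusted p = 0.0239). Zfp36l2 read 11.10 and 11.08 in wild type against 10.84, 10.89 and 10.80 in Mkl2-/- (-0.25 ± 0.03, adjusted p = 0.0285). Zfp36l3, an X-linked rodent gene known from placenta, read 8.25 and 8.24 in wild type against 7.71, 7.69 and 7.61 in Mkl2-/- (-0.58 ± 0.04, adjusted p = 0.0089), while its expressed neighbours on the chromosome had a median of -0.14.

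**Figure D2:**
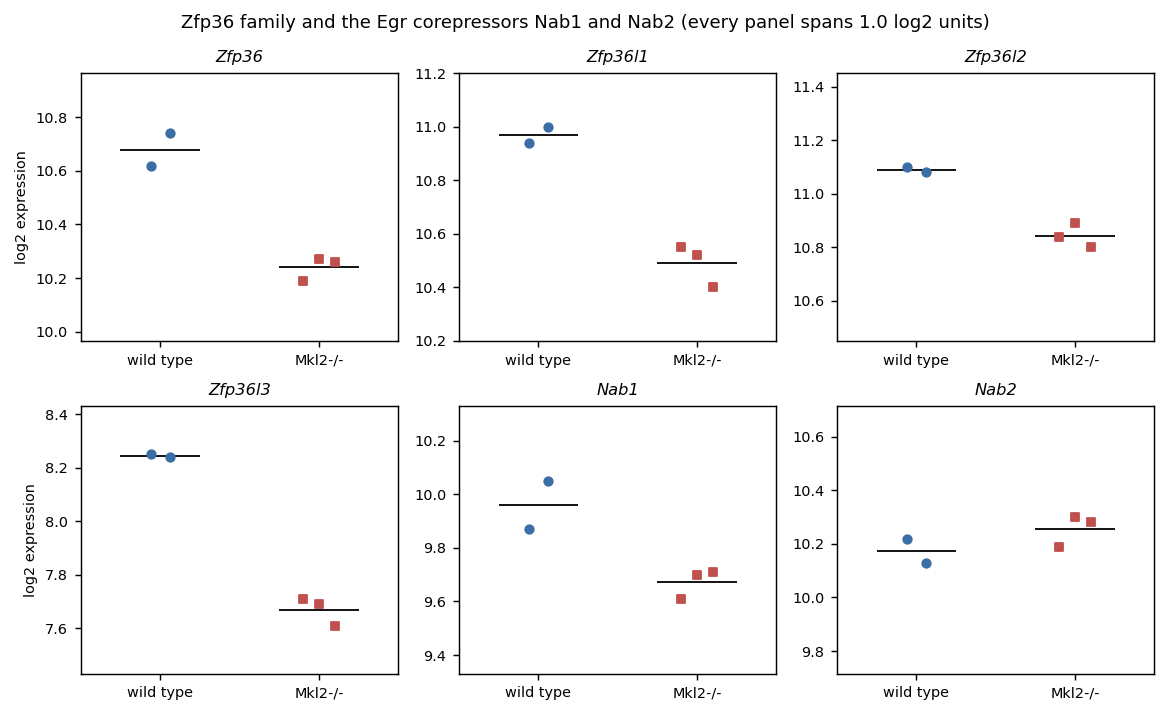
Log2 expression of Zfp36, its relatives Zfp36l1, Zfp36l2 and Zfp36l3, and the Egr corepressor genes Nab1 and Nab2 on the 2 wild-type arrays (circles) and the 3 Mkl2-/- arrays (squares), with group means as lines and each vertical axis spanning 1.0 log2 units. The 4 Zfp36 family genes and Nab1 are lower on every Mkl2-/- array, and Nab2 overlaps between the groups.

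The chromosomal surroundings differed between members. For each gene the median difference of its 24 nearest expressed neighbours was taken. For 8 members that median lay between -0.06 and 0.08, including Egr1 (0.00), Egr2 (0.04), Nr4a1 (0.03) and Zfp36 (0.08). Ier5 lies on chromosome 1, where its neighbours had a median of -0.27 and all 758 expressed genes a median of -0.17. The difference of Ier5 relative to its neighbours was -0.39. Egr4 lies on chromosome 6 among neighbours with a median of -0.33, so that Egr4 stood 0.41 above them. The part of these regional shifts in the differences of Ier5 and Egr4 was not tested.

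**Figure D3:**
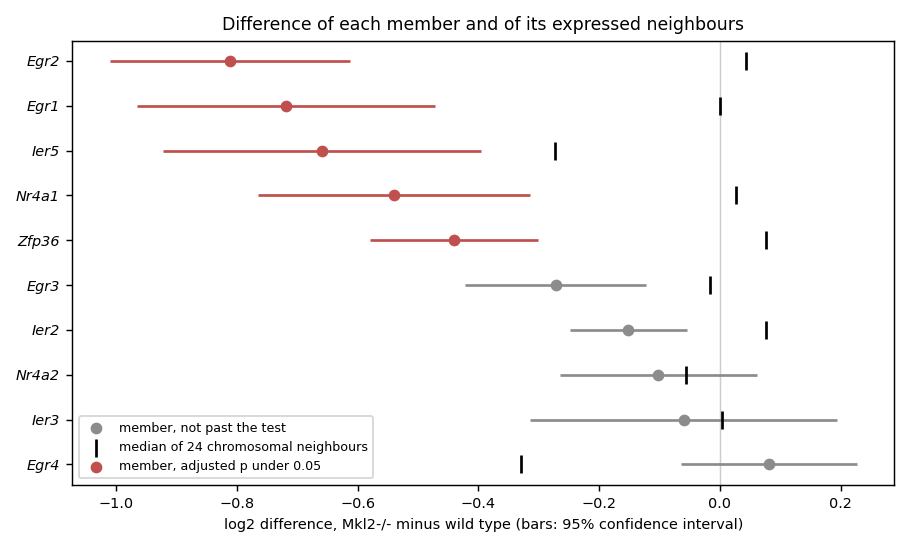
Log2 difference, Mkl2-/- minus wild type, of each of the 10 genes (points, with 95% confidence intervals from limma as bars) and the median difference of its 24 expressed chromosomal neighbours (black ticks). Points for Egr2, Egr1, Ier5, Nr4a1 and Zfp36 passed the test, and the ticks of Ier5 (-0.27) and Egr4 (-0.33) lie apart from those of the others.

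Leaving out an array removed calls but not directions. Without Mkl2-/- replicate 1 only Egr1 of the 10 passed, and without any one of the other 4 arrays none did. With Mkl2-/- replicate 1, 2 or 3 left out, 7 members were lower and 0 higher at an unadjusted p under 0.05. Among all 19938 genes 2178, 2273 and 2220 were lower and 1577, 1919 and 1741 higher in those fits. Without wild-type replicate 2 no gene on the array passed (4411 of 19938 at an unadjusted p under 0.05), so the calls on all other genes named here were lost in that fit too. Each such fit had 2 residual degrees of freedom in place of 3. The 5 genes that fell stayed between -0.88 and -0.38 in all 5 fits. With the mean of the fibroblast markers as a covariate, the 5 differences ran from -1.14 (Egr2) to -0.59 (Zfp36). None of the 19938 genes passed in that fit (1688 at an unadjusted p under 0.05). The covariate was 7.95 on both wild-type and 7.78 to 7.85 on the Mkl2-/- arrays, so it separates the genotypes. The fit can hardly part it from genotype, and the larger differences are no measure of feeder content. Standard errors of the 5 ran from 0.06 (Nr4a1) to 0.34 (Ier5) on 2 residual degrees of freedom.

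**Figure D4:**
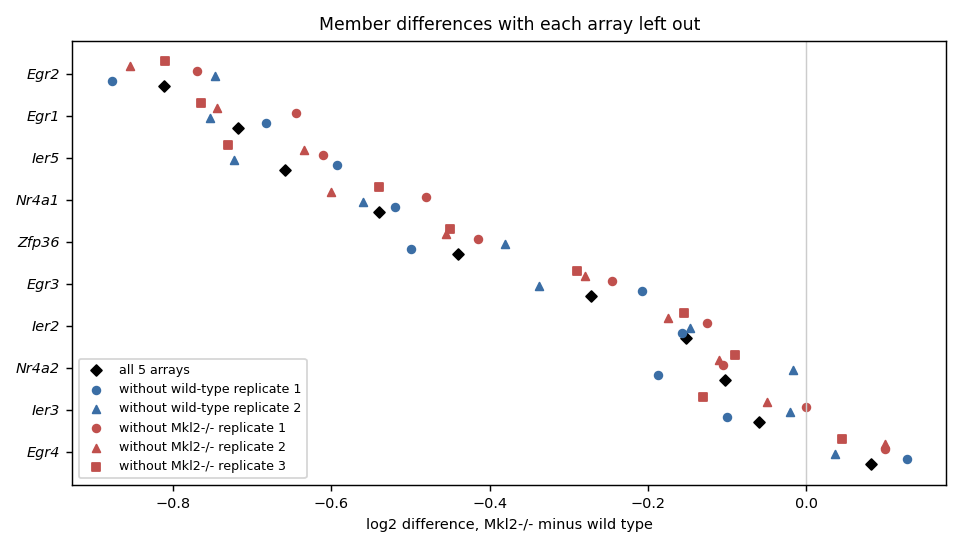
Log2 difference, Mkl2-/- minus wild type, of each of the 10 genes with all 5 arrays (diamonds) and with each array left out (blue for wild-type and red for Mkl2-/- arrays left out). Egr2, Egr1, Ier5, Nr4a1 and Zfp36 stay at or below -0.38 in every fit, and Ier3 reaches 0.00 without Mkl2-/- replicate 1.

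Other immediate-early genes were lower more often than higher. Of 37 further genes of this kind, all measured, 10 fell, 1 rose and 26 did not pass (27% lower, against 6.28% of all genes, and 2.7% higher, against 2.99%), with a median difference of -0.16. The AP-1 genes Fosb and Fos fell by 1.07 and 1.01 on the log2 scale (adjusted p = 0.0079 and 0.0108). Gadd45b, a stress sensor gene, read 11.62 and 11.64 in wild type against 10.64, 10.77 and 10.65 in Mkl2-/- (-0.94 ± 0.05, adjusted p = 0.0079). Ccn1 (Cyr61), a matricellular gene, read 11.93 and 11.93 in wild type against 10.99, 11.13 and 11.14 in Mkl2-/- (-0.84 ± 0.06, adjusted p = 0.0098). Ccn2 (Ctgf), in the same list and named after its value was seen, overlapped between the groups (-0.09 ± 0.05, adjusted p = 0.393). Klf4 fell by 0.69, in a region of chromosome 4 whose expressed neighbours had a median of -0.36. Plk2, a polo-like kinase gene, rose (10.16 and 10.18 in wild type; 10.61, 10.71 and 10.68 in Mkl2-/-; 0.50 ± 0.04, adjusted p = 0.0108). The remaining falls, named after their values were seen, were in Maff, Atf3, Dusp1, Dusp5 and Errfi1. The list was written with earlier results of these arrays known, and its calls were lost without wild-type replicate 2. Without Mkl2-/- replicate 1, 2 or 3, in that order, 5, 4 and 5 of its genes fell and 2, 1 and 0 rose. Over all genes 253, 309 and 326 fell and 80, 94 and 122 rose in those fits.

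**Figure D5:**
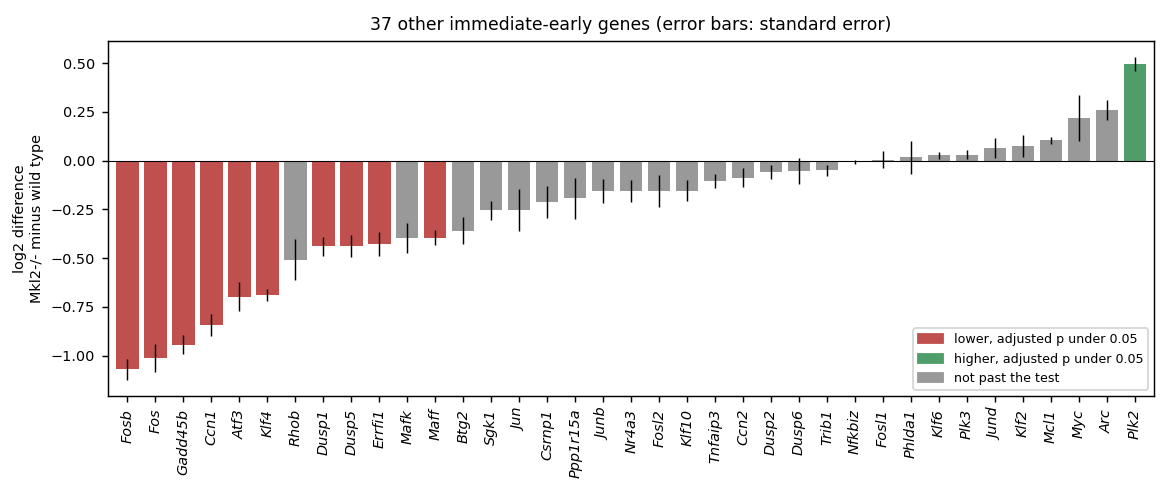
Log2 difference, Mkl2-/- minus wild type, of 37 immediate-early genes outside the Egr, Nr4a, Ier and Zfp36 set, ordered by size, with standard errors. Of these, 10 are lower and 1, Plk2, is higher at an adjusted p under 0.05.

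Most genes upstream of this set did not pass the test. Of 22 measured genes (29 listed) from FGF signalling through ERK to SRF and its partners, 4 fell, 1 rose and 17 did not pass (median -0.09). The shares were 18.2% lower and 4.55% higher, against 6.28% and 2.99% of all genes. The 4 falls include Mkl2 itself. Srf read 10.95 and 10.90 in wild type against 10.76, 10.82 and 10.72 in Mkl2-/- (-0.16 ± 0.04, adjusted p = 0.0997). Of the ternary complex factor genes, Elk1 read 10.23 on all 5 arrays. Elk3 read 8.95 on both wild-type and 8.88 on all 3 Mkl2-/- arrays, a fall of 0.07 (adjusted p = 0.0302) that rests on no spread at 2 decimals. Elk4, on chromosome 1, differed by -0.30 ± 0.08 (adjusted p = 0.115). Mkl1 (Mrtfa), the closest relative of Mkl2, differed by 0.01 (adjusted p = 0.664).

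Fgf4, the main FGF ligand gene of embryonic stem cells, rose, while Fgfr1, a receptor gene, fell. Fgf4 read 9.79 and 9.70 in wild type against 10.43, 10.48 and 10.34 in Mkl2-/- (0.67 ± 0.06, adjusted p = 0.0133). Fgfr1 read 11.51 and 11.49 in wild type against 11.20, 11.14 and 11.16 in Mkl2-/- (-0.33 ± 0.02, adjusted p = 0.0107). Rps6ka3, the X-linked gene of the ERK-activated kinase RSK2, fell by 1.95 (adjusted p = 0.0062), beside neighbours with a median of -0.52.

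Partners of the Egr and Nr4a proteins and genes known to respond to Egr and tristetraprolin gave mixed values. Of 12 relatives and partners, 3 fell (the Zfp36 relatives above), 1 rose and 8 did not pass (median 0.01). The shares were 25% lower and 8.33% higher, against 6.28% and 2.99% of all genes. The gene that rose was Wt1, a zinc finger factor that binds sites like those of Egr1 (9.48 and 9.53 in wild type; 9.98, 9.84 and 9.91 in Mkl2-/-; 0.41 ± 0.05, adjusted p = 0.0258). Nab1, a corepressor of the Egr proteins, differed by -0.29 ± 0.07 (adjusted p = 0.103) on chromosome 1, where its neighbours had a median of -0.34. Nab2, the other corepressor and itself an Egr target, differed by 0.08 ± 0.05 (adjusted p = 0.393, interval -0.06 to 0.22).

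Of 11 measured textbook targets of Egr factors, 3 fell and 0 rose (27.3% lower, against 6.28% of all genes, median -0.27). The falls were in Tgfb1 (-0.61 ± 0.03), Fn1 (-0.61 ± 0.06, on chromosome 1) and Pdgfa (-0.42 ± 0.05, adjusted p = 0.0220). Pdgfa, a platelet-derived growth factor gene, read 10.47 and 10.37 in wild type against 10.05, 9.95 and 9.99 in Mkl2-/-. F3, which encodes tissue factor, differed by -0.45 ± 0.08 without passing (adjusted p = 0.0592). Of 13 AU-rich messages known to be bound by tristetraprolin, 3 fell and 0 rose (23.1% lower, against 6.28% of all genes, median 0.02). Of them, 6 lay below background. Ptgs2, the inducible cyclooxygenase gene, read 9.65 and 9.66 in wild type against 8.84, 9.07 and 8.79 in Mkl2-/- (-0.76 ± 0.10, adjusted p = 0.0291), on chromosome 1 among neighbours with a median of -0.26. Vegfa (-0.40 ± 0.04, adjusted p = 0.0186) and Dusp1 (-0.44 ± 0.05, adjusted p = 0.0225) were the other falls, and Ccl3 was below background. Dusp1 also stands in the immediate-early list and Ier3 is one of the 10 genes.

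The genes whose profiles over the 5 arrays were closest to those of 4 members, 1 from each family, were found by the root mean square difference of log2 values centred on each gene's mean, among 13010 other expressed genes, leaving out predicted gene models. Closest to Egr1 were Ptgr1 (0.039), Tuft1 (0.041) and Steap3 (0.046). Closest to Nr4a1 were Pcdh1 (0.016), Ckb (0.034) and Ralgps2 (0.035), and closest to Ier2 were Arvcf (0.014), Slc16a1 (0.014) and Cnppd1 (0.015). Closest to Zfp36 were Thbs1 (0.013), Rab3b (0.017) and Stradb (0.017). Among the other members, Ier5 was the closest to Egr1, at rank 17 (0.065), and Zfp36 the closest to Nr4a1, at rank 165 (0.087). Nr4a1 was the closest member to Zfp36, at rank 519 (0.087), and Nr4a2 the closest to Ier2, at rank 1511 (0.065). All these profiles share the same 5 arrays and the same contrast of genotypes.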

How the data were processed

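The authors used Affymetrix Expression Console 1.1 and RMA, per the submitters' processing notes, and deposited log2 expression values. RMA corrects background, normalizes by quantiles and summarizes probes. Neither its settings nor scan batches are in the sources used here. There were 35556 features per array, 5 arrays, and 0 unused columns. Features with 1 annotated symbol numbered 21789, those with several 1621 and those without any 12146. The brightest feature per gene gave 19938 genes, of which 19855 matched RefSeq (GRCm38.p6) by Entrez identifier. Genotypes were compared in R 4.3.3 by limma 3.58.1 (lmFit, eBayes) with a default prior (3 residual and 0.885 prior degrees of freedom), with Benjamini-Hochberg adjustment over all genes. Within-group spread was 0 for 776 genes, and limma offsets such variances. The fit was tested on simulated data. The members, lists and tests were chosen with earlier results of these data known. Named were all members, the 6 genes of the immediate-early list and 4 of each of the upstream, partner, Egr target and tristetraprolin target lists with the smallest p, and the SRF, Elk, Mkl, Nab, Zfp36-like and Nr4a3 genes, and the 3 closest profiles of 4 members. Any marker named outside this rule was picked with its value known. Alternatives were quantile normalization, removal of dim genes, trended robust moderation, the mean of features, a replicate block, a fibroblast covariate and each array left out. Figures used matplotlib 3.10.9.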

Additional observations from a re-analysis of the deposited data

How the results depend on the processing

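Of the 10 genes, 5 also fell after quantile normalization, with trend and robust moderation and with the mean of a gene's features, and 6 fell among genes above background, where Egr3 joined them. After quantile normalization 1254 of all genes rose and 1652 fell, while 2 immediate-early genes rose and 14 fell. Among the 13564 genes above background 822 rose and 1537 fell, while 3 immediate-early genes rose and 14 fell. No member changed the sign of its difference under any alternative run, although Ier3 came to 0.00 without Mkl2-/- replicate 1. With single arrays left out, between 0 and 1 members fell and 0 rose, 0 to 5 immediate-early genes fell and 0 to 2 rose, and over all genes 0 to 490 fell and 0 to 473 rose, the lowest counts without wild-type replicate 2.

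With the replicate number as a block, limma left 1 residual degree of freedom. Then 0 genes passed in either direction (1981 lower and 1846 higher at an unadjusted p under 0.05), so 0 members and 0 immediate-early genes fell or rose. Deviations of same-numbered arrays from their group means correlated at -0.26 (number 1) and 0.18 (number 2). With 2 wild-type arrays these deviations mirror each other, so the values are not independent, and whether the numbers mark shared handling is not known. With the fibroblast covariate 0 genes passed (958 lower and 730 higher at an unadjusted p under 0.05), so 0 members and 0 immediate-early genes fell or rose. The members all lay above background by their mean. Egr4 lay closest to it, at 7.83 to 8.03 against 7.30. Whether low signal limited any difference was not tested. Every wild-type spread was set by 2 wild-type arrays.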
